A study of Homo sapiens with 4 samples.

Results

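The genes described here encode the enzymes, membrane proteins and proton pump of the lysosome, together with the TFE transcription factors that switch such genes on. There were 40 of them among the 58233 genes of the count table. The 40 were chosen by symbol for these roles, with earlier results of these data known. They fell into 3 TFE factors, 7 proteins of the lysosomal membrane and of sterol export, 18 hydrolases and their cofactors, and 12 subunits of the vacuolar proton pump.

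Messenger RNA was sequenced from MIA PaCa-2 and PANC-1, established human pancreatic cancer cell lines whose genotype was given as wild type. Each line was treated for 24 h with cannabichromene (CBC), a cannabinoid of the cannabis plant, or with PBS. The dose of CBC was 35 µM in MIA PaCa-2 and 30 µM in PANC-1 cells, so that dose and line cannot be told apart. The sample records name PBS as the control, whereas the methods of the study speak of a vehicle and of CBC dissolved in acetonitrile. Where 2 values are given for a line, the control comes first. There was 1 library per line and treatment, so the lines were the only replication and no test was possible within a line.

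The 4 libraries held between 21742775 and 27903667 counts, and a count of 0 allowed a level of at most 0.11 to 0.135 CPM, counts scaled to an equal library size. KRT8, KRT18 and KRT19, keratins of simple epithelium, were present in every library. Their log2 fold changes after CBC lay between -0.58 and -0.33 in the MIA PaCa-2 line and between -1.13 and -0.62 in PANC-1 cells. EPCAM, an epithelial adhesion molecule, had 264 and 250 counts in PANC-1 cells but 0 and 1 in MIA PaCa-2 cells. The leukocyte genes PTPRC and CD3E were at 0 in every library. ITGAM, an integrin of myeloid cells, had 12 counts in control and 491 in CBC-treated MIA PaCa-2 cells, and 4 in each PANC-1 library. Whether any of these moved with the lysosomal genes for a shared reason was not tested.

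Lysosomes are acidic organelles in which hydrolases break down proteins, lipids and sugars. A proton pump in their membrane keeps the lumen acidic, and transporters and channels in the same membrane return the products to the cell. TFEB, TFE3 and MITF are related factors that enter the nucleus when the lysosomal mTORC1 kinase is less active. There they bind short DNA letters, an E-box inside a longer motif, that lie before the start of many lysosomal genes.

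These letters could be read for some of the genes. Promoter windows of RefSeq on GRCh38.p14, from 250 bases before to 50 bases after a transcript start, were given for 27 of the 40 genes. The core E-box CACGTG was present in 10 of these 27 (37.0%), against 8.77% of all 27305 genes with a window. The longer letters TCACGTG, read on either strand and always containing the core, were present in 9 of 27 (33.3%), against 4.49% of all genes. A gene was counted when any of its windows held the letters. Per window the core was present in 23.8% of 42 windows of members, against 7.26% of all 35116. Such letters are known from lysosomal genes, so an excess in a list chosen as lysosomal describes the list and is no test. LAMP1 held 6 matches in 1 window, of which 5 lie wholly in the bases printed here and the first letters of the last one close the run. The upstream window of LAMP1 is shown for this cluster, and 30 bases around 1 match are shown for 7 other members from the 3 structural groups. Each is written 5′ to 3′ on the strand of its gene, with the core in capitals.
LAMP1, chr13:113296989-113297238, plus strand: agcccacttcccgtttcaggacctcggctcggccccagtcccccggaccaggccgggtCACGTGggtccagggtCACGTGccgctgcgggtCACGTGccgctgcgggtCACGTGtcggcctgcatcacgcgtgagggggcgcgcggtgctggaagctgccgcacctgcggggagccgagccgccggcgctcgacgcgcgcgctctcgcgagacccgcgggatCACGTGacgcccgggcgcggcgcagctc
NEU1, chr6:31862930-31862959, minus strand: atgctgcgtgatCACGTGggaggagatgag
MCOLN1, chr19:7522571-7522600, plus strand: accagaggcggtCACGTGaggggctctggg
CTSA, chr20:45891298-45891327, plus strand: ggcgccggagttCACGTGactcgtacacat
CTSD, chr11:1763957-1763986, minus strand: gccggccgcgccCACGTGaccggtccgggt
GAA, chr17:80101493-80101522, plus strand: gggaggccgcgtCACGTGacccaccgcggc
ATP6V0D1, chr16:67481199-67481228, minus strand: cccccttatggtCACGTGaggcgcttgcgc
ATP6V1G1, chr9:114587699-114587728, plus strand: acgctgtgcggtCACGTGacaacgggggcg

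**Figure D1:**
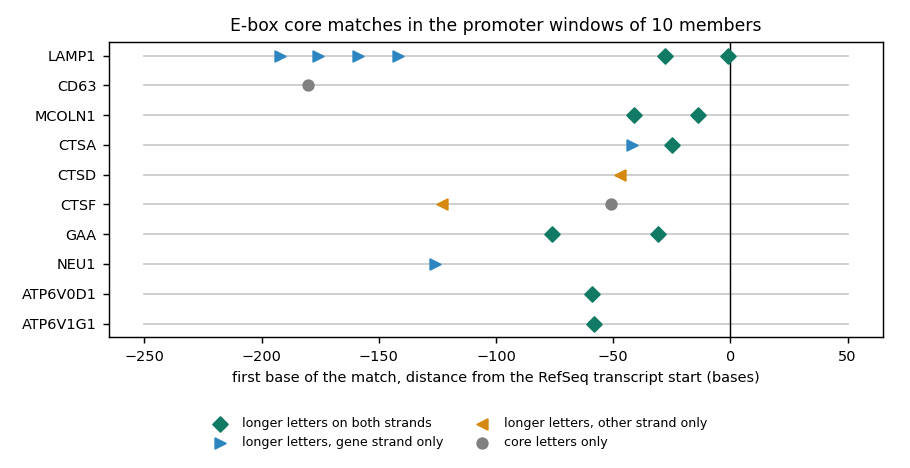
Position of every E-box core in the RefSeq promoter windows of the 10 members that hold one, in bases from the transcript start (vertical line), with 1 row per gene. The symbol shows whether the longer letters were present and on which strand; LAMP1 has 6 matches, and the matches of MCOLN1, CTSA, GAA, ATP6V0D1 and ATP6V1G1 lie within 76 bases of the start.

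A match describes the sequence and is not evidence of binding. In MIA PaCa-2 cells the 8 tested members with the longer letters had a median log2 fold change of 0.72 after CBC, and the 18 with a window but without them had 0.50. In PANC-1 cells the medians were 0.44 for 9 members with the letters and 0.28 for 18 without. Over all genes the medians were 0.07 with and -0.03 without the letters in MIA PaCa-2 cells, and 0.11 with and -0.0041 without in PANC-1 cells. The difference between members with and without the letters was not tested. Of the members that passed the test across lines, given below, only NEU1 was seen to hold the letters. CTSL and TPP1 had a window without the core, and HEXA, PSAP and ATP6V0D2 had no window.

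As a group, these 40 genes lay higher after CBC in both lines. They were chosen with earlier results of these data known, so the shares and medians below describe the list and are not a test of it. In MIA PaCa-2 cells 30 of the 39 genes that reached at least 1 CPM in either library were higher, against 49.1% of all 14001 genes tested. Their median log2 fold change was 0.39, where that of all genes was -0.01. In PANC-1 cells 31 of 40 were higher, against 51.4% of 14091 genes, with a median of 0.39 beside 0.02. Setting ATP6V0D2, whose control libraries were at 0, to its lower bound left both medians as they were. Of the 39 genes tested in both lines, 27 were higher in both (34.8% of all 12502 genes), 5 were lower in both (35.1%) and 7 had opposite signs (30.1%). Of the 27, the change was larger in MIA PaCa-2 cells for 19. Scaling by library totals turned the sign of SGSH in MIA PaCa-2 cells and of ATP6V0E1 in PANC-1 cells, both near 0, and of no other member. In such bulk libraries, a change in the number of expressing cells and a change in RNA per cell cannot be told apart.

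**Figure D2:**
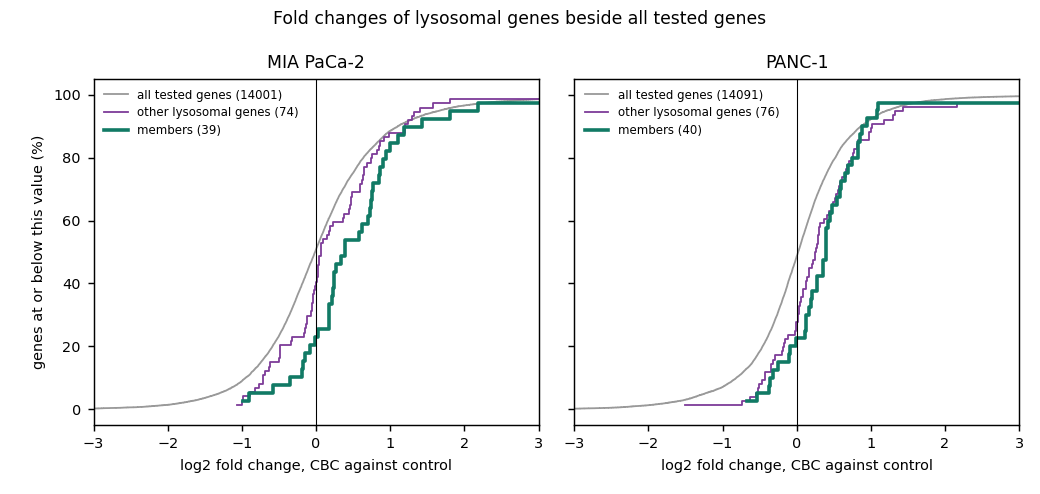
Cumulative share of genes (percent) at or below each log2 fold change of CBC against control in MIA PaCa-2 (left) and PANC-1 cells (right), for the members, the other lysosomal genes and all tested genes, with the axis ending at 3 on either side. The curve of the members lies to the right of all genes around 0 and meets it near the upper end, and the medians of the members were 0.39 in both lines.

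Few members passed the threshold of the study for a differentially expressed gene (DEG), a log2 fold change beyond 1 in either direction. In MIA PaCa-2 cells 7 of 39 were above 1, beside 11.5% of all genes, and 0 were below -1, beside 8.97%. The 7 were MITF, CTSL, HEXA, NEU1, TPP1, ATP6V0D2 and ATP6V1E1. Of these, MITF in MIA PaCa-2 cells and ATP6V0D2 in both lines reached 1 CPM only after CBC. ATP6V1E1 fell short of 1 with DESeq2 size factors, at 0.99, and with the deposited CPM and a pseudocount of 1. MITF was at 0.92 with that pseudocount. In PANC-1 cells CTSL, NEU1 and ATP6V0D2 were above 1, which is 3 of 40 beside 7.71% of all genes, and 0 were below -1, beside 7.03%. These 3 genes were also above 1 in MIA PaCa-2 cells, beside 3.33% of all genes above 1 in both lines. Nearest to the threshold in MIA PaCa-2 cells were ATP6V1E1, just past it, TFE3, at 0.94, and on the lower side ATP6V1A, at -0.98. The share of members above 1 was near that of all genes in PANC-1 cells, and most members in both lines changed by less than the threshold.

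Across both lines, with the line as a block, 6 of 40 members rose at an adjusted p under 0.05 in edgeR's quasi-likelihood test, beside 2.26% of 16381 genes. These were CTSL, HEXA, NEU1, PSAP, TPP1 and ATP6V0D2, of which ATP6V0D2 passed the filter on low counts only through its CBC-treated libraries. Each of the 6 was higher in both lines. None fell at that threshold, beside 2.45% of all genes. At an unadjusted p under 0.05, 16 members were higher, beside 10.6% of all genes, and 1, ATP6V1A, was lower, beside 10.4%. With 2 pairs of libraries the fit had 1 residual degree of freedom, and without the line as a block 0 members passed, with NEU1, NPC1 and ATP6V0D2 at an unadjusted p under 0.05. DESeq2 called 9 members higher (4.38% of all genes) and 0 lower (5.43%), and edgeR with library totals 6 (2.47%) and 0 (2.03%). The bias-adjusted edgeR fit called 4 higher (1.94%) and 0 lower (1.98%), and the fit to every gene with a count 11 (3.66%) and 0 (3.49%).

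**Figure D3:**
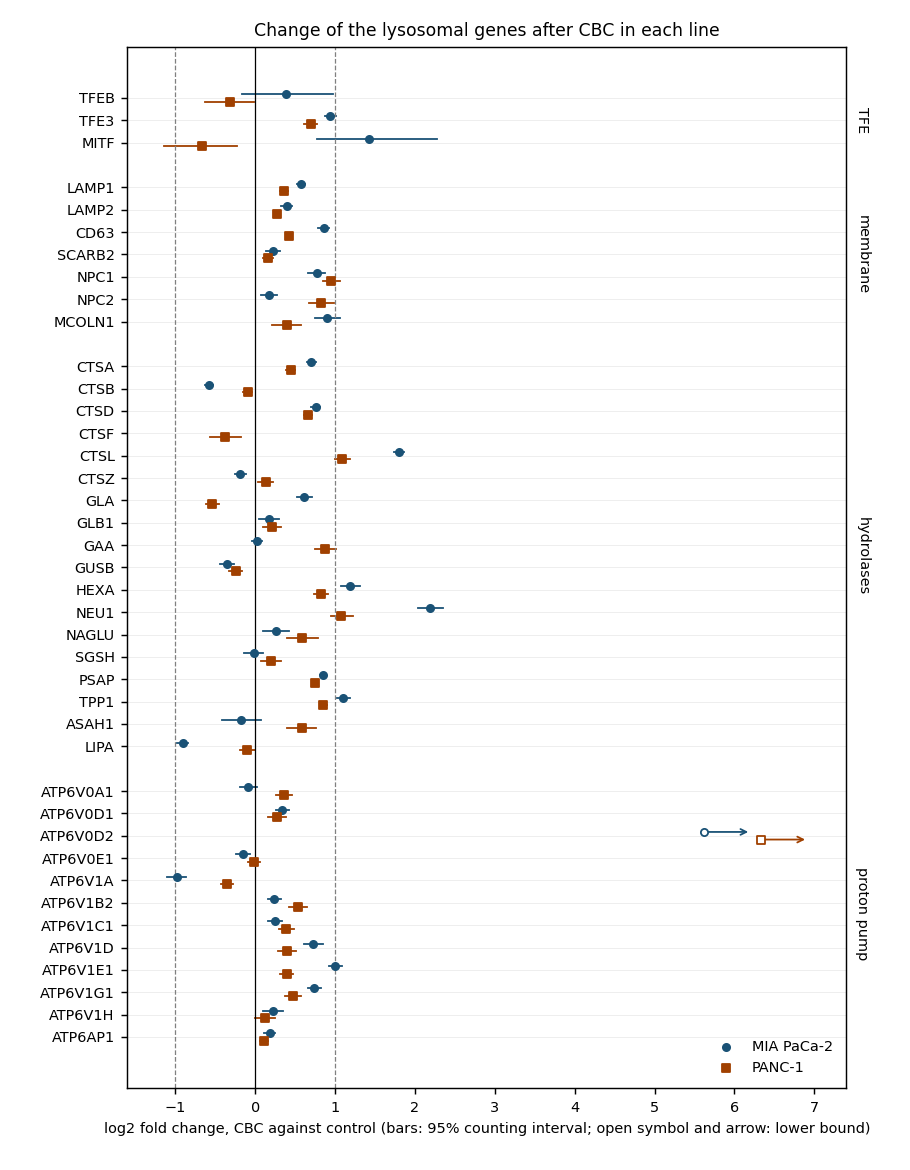
Log2 fold change of CBC against control for each member in MIA PaCa-2 (circles) and PANC-1 cells (squares), with bars for the 95% counting interval and dashed lines at the DEG threshold of 1. Open symbols with arrows mark the lower bounds of ATP6V0D2, whose control libraries held 0 counts, and most other points lie between 0 and 1.

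Of the TFE factors, TFE3 was by far the most abundant. Per kilobase of merged exons its level was 28.3 CPM in control and 54.3 in CBC-treated MIA PaCa-2 cells, and 19.0 and 30.7 in PANC-1 cells. TFEB lay between 0.301 and 1.20 CPM per kilobase, and MITF between 0.127 and 0.569. TFE3 was thus the factor with the most mRNA in every library, and its level was higher after CBC in both lines. Its log2 fold change was 0.94 in MIA PaCa-2 and 0.70 in PANC-1 cells, and across both it missed the threshold in edgeR's quasi-likelihood test (0.83 ± 0.20 SE, adjusted p = 0.0644). Over the other fits with the block its adjusted p ran from 0.0055 to 0.0689.

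The less abundant factors had opposite signs in the lines. MITF, known from melanocytes, had 21 counts in control and 66 in CBC-treated MIA PaCa-2 cells, and 96 and 72 in PANC-1 cells. The log2 fold changes were 1.42 and -0.66, with counting intervals of 0.77 to 2.28 and -1.14 to -0.22 on opposite sides of 0. Such intervals, here and below, cover counting error only and not the variation between replicates. TFEB had 45 and 66 counts in MIA PaCa-2, and 184 and 177 counts in PANC-1 cells, with log2 fold changes of 0.39 and -0.32. The interval of TFEB in MIA PaCa-2 cells, -0.17 to 0.98, included 0.

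All 7 membrane and sterol export genes were higher after CBC in both lines (34.8% of all genes), and 0 of them passed the test across lines. Their median log2 fold change was 0.57 in MIA PaCa-2 and 0.39 in PANC-1 cells, and all 14 counting intervals, which cover counting error only, lay above 0. NPC1, which exports cholesterol from the lysosome, had 50.9 and 86.7 CPM in MIA PaCa-2, and 49.4 and 95.6 CPM in PANC-1 cells. Both treated libraries were above both controls. The change across lines was 0.87 ± 0.21 (SE) on the log2 scale, with an adjusted p of 0.0633 in edgeR's quasi-likelihood test.

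NPC2, the soluble partner that hands cholesterol to NPC1, changed little in MIA PaCa-2 cells, at 66.4 and 74.7 CPM, and more in PANC-1 cells, at 22.2 and 39.4. MCOLN1, a calcium channel of the lysosome, had the reverse order, with 22.6 and 42.4 CPM in MIA PaCa-2, and 18.2 and 23.9 CPM in PANC-1 cells. Its log2 fold changes were 0.90 and 0.39. CD63, a tetraspanin of late endosomes and exosomes, went from 113 to 204 CPM and from 340 to 455.

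LAMP1 and LAMP2 are the heavily glycosylated proteins that line the lysosomal membrane. LAMP1 had 213 and 318 CPM in MIA PaCa-2, and 248 and 317 CPM in PANC-1 cells, so that the treated libraries of the lines were nearly level. LAMP2 had 144 and 190 CPM, and 390 and 469, and its PANC-1 control lay above both MIA PaCa-2 libraries. SCARB2, the receptor that carries glucocerebrosidase to the lysosome, had the smallest mean change of the group, with log2 fold changes of 0.22 and 0.16.

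The hydrolases spread widely. In MIA PaCa-2 cells 11 of 17 were higher (49.1% of all genes), with a median log2 fold change of 0.26 and a range of -0.91 to 2.19. In PANC-1 cells 13 of 18 were higher (51.4% of all genes), with a median of 0.51 and a range of -0.54 to 1.09. Across lines 5 of 18 rose, beside 2.26% of all genes. These 5 cleave proteins or remove sugars from lipids and proteins, or help to do so.

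NEU1, the lysosomal sialidase, had the largest change of them in MIA PaCa-2 cells, with 16.9 and 77.1 CPM, beside 25.9 and 54.7 CPM in PANC-1. Both treated libraries lay above both controls. The change was 4.55-fold and 2.11-fold, and 1.64 ± 0.32 (SE) on the log2 scale across lines, with an adjusted p of 0.0323 in edgeR's quasi-likelihood test. Its gene lies on the minus strand of GRCh38 at chr6:31857659-31862905. The RefSeq start of its window lies inside this gene model, and the 30 bases shown above lie before both starts.

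CTSL, the cysteine protease cathepsin L, had 115 and 402 CPM in MIA PaCa-2, and 53.7 and 115 CPM in PANC-1 cells. The treated PANC-1 library thus only reached the level of untreated MIA PaCa-2 cells. The change was 3.48-fold and 2.13-fold, and across lines 1.46 ± 0.24 (SE) on the log2 scale, with an adjusted p of 0.0213 in edgeR's quasi-likelihood test. The gene lies at chr9:87724051-87731469 on the plus strand, and its 6 annotated pseudogenes had 0 counts in every library.

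TPP1, a protease that removes tripeptides, had 76.0 and 163 CPM in MIA PaCa-2, and 265 and 479 CPM in PANC-1 cells. The log2 fold changes were 1.10 and 0.85, and 0.98 ± 0.19 (SE) across lines, with an adjusted p of 0.0334 in edgeR's quasi-likelihood test. HEXA, the alpha subunit of the hexosaminidase that degrades GM2 ganglioside, had 35.8 and 81.9 CPM, and 75.2 and 133. In both genes the PANC-1 libraries lay above the MIA PaCa-2 library of the same treatment. For HEXA the log2 change across lines was 1.01 ± 0.22 (SE), with an adjusted p of 0.0453 in edgeR's quasi-likelihood test, and its fold was 2.28 in MIA PaCa-2 and 1.77 in PANC-1 cells. The bias-adjusted form of the test gave HEXA an adjusted p of 0.0537, within a range of 0.00144 to 0.0537 over the other fits with the block. TPP1 lies at chr11:6612768-6619448 and HEXA at chr15:72340924-72376420, both on the minus strand, and 14.1% of the exon bases of HEXA overlap a gene on the other strand, while 11.6% of the exon bases of TPP1 overlap another gene on the same strand.

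PSAP is the precursor of the saposins, small proteins that present lipids to the enzymes. It had 355 and 637 CPM in MIA PaCa-2, and 1750 and 2940 CPM in PANC-1 cells, so that control PANC-1 cells exceeded treated MIA PaCa-2 cells. Per kilobase of merged exons PSAP was the highest member in every library, at 114, 205, 563 and 945 CPM. Per kilobase of the canonical transcript it was again the highest except in CBC-treated MIA PaCa-2 cells, where CTSL was at 243 and PSAP at 232. The log2 fold changes were 0.85 and 0.75, and 0.80 ± 0.16 (SE) across lines, with an adjusted p of 0.0334 in edgeR's quasi-likelihood test. The bias-adjusted form gave 0.0526, in a range of 2.56e-05 to 0.0526 over the other fits with the block. The gene lies at chr10:71816298-71851251 on the minus strand.

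Other hydrolases were higher in both lines without passing the test. CTSD, the aspartic protease cathepsin D, had 159 and 270 CPM in MIA PaCa-2, and 216 and 341 CPM in PANC-1 cells, with an adjusted p of 0.0764 in edgeR's quasi-likelihood test. Of its exon bases 27.3% overlap another gene on the same strand and 23.4% one on the other strand, so that its counts are uncertain. CTSA, which protects NEU1 and the lysosomal galactosidase in a complex, had 201 and 326 CPM, and 171 and 232. For both, the treated libraries lay above both controls, and 21.5% of the exon bases of CTSA overlap a gene on the other strand. NAGLU, which degrades heparan sulfate, and GLB1, the lysosomal galactosidase, were higher by 0.26 and 0.59, and by 0.18 and 0.21, on the log2 scale in MIA PaCa-2 and PANC-1 cells. For NAGLU, 12.9% of the exon bases overlap another gene on the same strand. GAA, the acid glucosidase that degrades glycogen, was level in MIA PaCa-2 cells, at 183 and 186 CPM, and went from 32.3 to 59.5 in PANC-1 cells.

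Of the 17 hydrolases tested in both lines, 10 were higher in both, 3 were lower in both and 4 had opposite signs. Over all genes these shares were 34.8%, 35.1% and 30.1%. CTSB, cathepsin B, had 304 and 203 CPM in MIA PaCa-2, and 215 and 201 CPM in PANC-1 cells. LIPA, the acid lipase that frees cholesterol from its esters, had 195 and 104 CPM, and 70.4 and 65.7. These were the lower members with the largest changes of the hydrolases in MIA PaCa-2 cells, at log2 fold changes of -0.58 and -0.91, and neither passed the test across lines. GUSB, the glucuronidase, was lower by value in both lines, at -0.35 and -0.25. Its 18 pseudogenes together had 335 to 742 counts, up to 34.2% of those of GUSB itself, so that its counts are uncertain.

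GLA, the galactosidase missing in Fabry disease, had 72.4 and 111 CPM in MIA PaCa-2 cells but 119 and 82.3 in PANC-1 cells. CTSZ, cathepsin Z, had 152 and 134 CPM, and 76.3 and 83.5. Both therefore had opposite signs in the lines by value, from 1 library per line and treatment, and 31.7% of the exon bases of CTSZ overlap a gene on the other strand. ASAH1, the acid ceramidase, had log2 fold changes of -0.17 and 0.58, with an interval that included 0 in MIA PaCa-2 cells. SGSH, another enzyme of heparan sulfate breakdown, had -0.02 and 0.20, and the former became 0.05 with scaling by library totals. CTSF, cathepsin F, had 0 counts in both MIA PaCa-2 libraries, and 441 and 409 counts in PANC-1 cells, or 19.4 and 15.0 CPM.

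**Figure D4:**
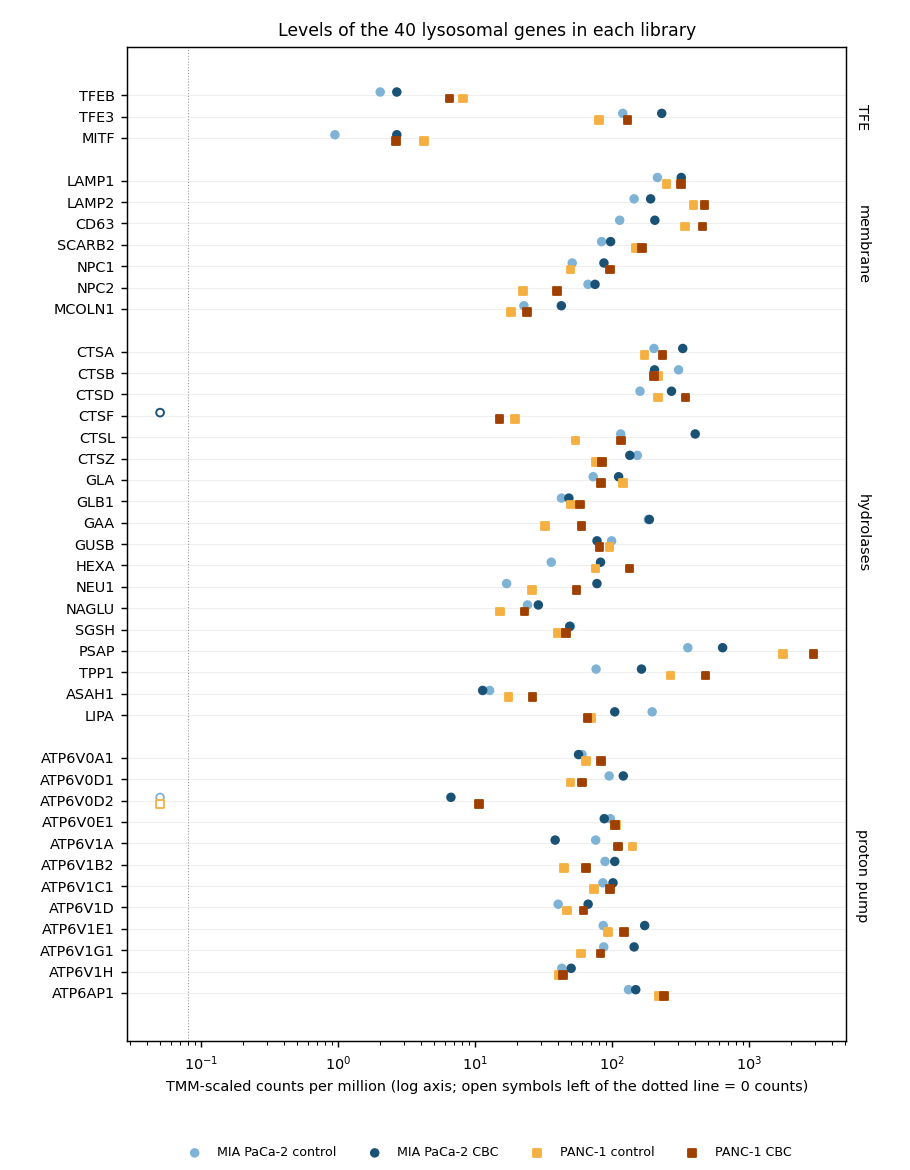
TMM-scaled CPM (log axis) of each member in the 4 libraries, grouped by role, with circles for MIA PaCa-2 and squares for PANC-1 cells, light for control and dark for CBC. Open symbols left of the dotted line are counts of 0; ATP6V0D2 is at 0 in both controls, at 6.63 and 10.6 CPM after CBC, and PSAP reaches 2940 CPM in treated PANC-1 cells.

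The proton pump consists of a V1 part that hydrolyses ATP and a V0 part in the membrane that moves protons. In MIA PaCa-2 cells 9 of 12 subunits among the members were higher after CBC (49.1% of all genes), with a median log2 fold change of 0.24. In PANC-1 cells 10 of 12 were higher (51.4% of all genes), with a median of 0.37. A single member subunit, ATP6V0D2, rose across lines, beside 2.26% of all genes. Pump subunits outside the members were split. In MIA PaCa-2 cells 4 of 8 tested were higher, with a median of -0.21, and in PANC-1 cells 5 of 8, with a median of 0.11.

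ATP6V0D2 encodes a form of the V0 d subunit known from osteoclasts and macrophages. It had 0 counts in both controls, 164 counts in CBC-treated MIA PaCa-2 cells and 290 in CBC-treated PANC-1 cells. Against 3 counts in each control library, the level was at least 49.1-fold higher in MIA PaCa-2 cells and at least 80.4-fold higher in PANC-1 cells. It had the smallest adjusted p of the members in edgeR's quasi-likelihood test, 0.00657, and its adjusted p ran from 1.73e-25 to 0.0152 over the other fits with the block. It passed the filter on low counts only through the CBC-treated libraries, where it was high, so these p-values are no separate support for its rise. The gene lies at chr8:85987323-86154225 on the plus strand, and 17.1% of its exon bases overlap a gene on the other strand, while the strand setting of the counting was not given in the sources used here.

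Its ubiquitous counterpart ATP6V0D1 was present in every library, with 94.7 and 120 CPM in MIA PaCa-2, and 49.5 and 59.7 CPM in PANC-1 cells. Per kilobase of merged exons ATP6V0D2 after CBC was at 2.26 and 3.61 CPM, against 14.7 and 7.32 for ATP6V0D1. Per kilobase of the canonical transcript the values were 2.80 and 4.48 against 73.1 and 36.5. ATP6V0D2 thus remained the less abundant form on both scales. The macrophage markers did not share 1 direction. ITGAM, given above, had 12 and 491 counts in MIA PaCa-2 cells, higher after CBC as ATP6V0D2 was, but 4 and 4 in PANC-1 cells (adjusted p = 0.101 across lines in edgeR's quasi-likelihood test, and 4.09e-07 to 0.259 over the other fits with the block). CSF1R had 4 counts and 1 count in the CBC-treated libraries and 0 in the controls, and LYZ had 23 and 3 counts in MIA PaCa-2 and 0 in PANC-1 cells. CD14 had 123 and 18 counts, and 32 and 2, and fell across lines in edgeR's quasi-likelihood test (adjusted p = 0.0303). The part of such cells in the level of ATP6V0D2 was not tested.

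In the V1 part ATP6V1E1, a subunit of its stalk, had 85.7 and 172 CPM in MIA PaCa-2, and 92.7 and 122 CPM in PANC-1 cells. ATP6V1G1, its stalk partner, had 86.4 and 144 CPM, and 58.8 and 81.7. ATP6V1D, of the central rotor, had 40.2 and 66.5 CPM, and 46.6 and 61.4. The log2 fold changes of ATP6V1D and ATP6V1G1 were 0.73 and 0.74 in MIA PaCa-2 cells, and all 3 genes lay between 0.39 and 0.47 in PANC-1 cells. Across lines their adjusted p in edgeR's quasi-likelihood test was 0.138 for ATP6V1E1, 0.15 for ATP6V1G1 and 0.206 for ATP6V1D.

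ATP6V1A, the catalytic subunit, went the other way, with 75.5 and 38.2 CPM in MIA PaCa-2, and 140 and 110 CPM in PANC-1 cells. Its log2 fold changes were -0.98 and -0.35, and its adjusted p across lines was 0.157 in edgeR's quasi-likelihood test. ATP6V1B2, the noncatalytic partner in the same ring, had 88.3 and 104 CPM, and 44.3 and 64.5. Subunits of 1 ring thus differed in sign. ATP6V1C1 and ATP6V1H, of the stalks and their regulation, and ATP6AP1, an accessory protein, were higher by 0.11 to 0.39 on the log2 scale in both lines.

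In the V0 part ATP6V0A1, which anchors the pump in the membrane, had 60.0 and 56.6 CPM in MIA PaCa-2, and 64.0 and 82.1 CPM in PANC-1 cells. ATP6V0E1 had 96.6 and 87.2 CPM, and 106 and 105. With ATP6V0D1, these V0 members had log2 fold changes between -0.15 and 0.36.

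Summed over all 40 genes, the share of counts that fell on them was larger after CBC. It was 0.388% in control (95% Clopper-Pearson interval 0.386 to 0.391) and 0.562% in CBC-treated MIA PaCa-2 cells (0.559 to 0.565). In PANC-1 cells it was 0.518% (0.515 to 0.521) and 0.766% (0.762 to 0.769). The intervals cover counting error only. PSAP alone took 0.0363% and 0.0682% in MIA PaCa-2 and 0.164% and 0.288% in PANC-1 cells. Without PSAP the shares were 0.352% and 0.493%, and 0.355% and 0.477%, so that the lines were nearly level within each treatment.

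**Figure D5:**
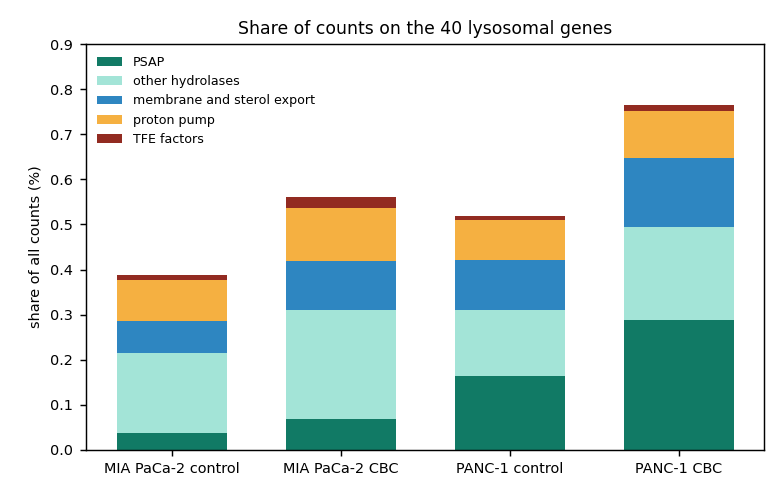
Share of all counts (percent) on the 40 members in each of the 4 libraries, as stacked bars for PSAP, the other hydrolases, the membrane, proton pump and TFE genes. The stack is taller after CBC in both lines, 0.562% against 0.388% and 0.766% against 0.518%, and PSAP fills much more of it in PANC-1 cells.

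By its median over the whole set, a wider set of 83 lysosomal genes outside the members lay between them and all genes. Its pump subunits in MIA PaCa-2 cells, given above, had a median below that of all genes. Their median log2 fold change was 0.07 over 74 tested genes in MIA PaCa-2 (44 higher) and 0.26 over 76 in PANC-1 cells (55 higher). Of all tested genes, 49.1% were higher in MIA PaCa-2 and 51.4% in PANC-1 cells. Across lines 8 of 78 rose, beside 2.26% of all genes, and 0 fell, beside 2.45%, in edgeR's quasi-likelihood test. By list, 3 of the 8 that rose were lysosomal membrane proteins, 3 were regulators at the mTORC1 platform, 1 was a hydrolase and 1 a sorting receptor.

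Of the membrane proteins, LAMP3, an inducible relative of LAMP1, had 2 and 325 counts in MIA PaCa-2, and 86 and 2331 counts in PANC-1 cells (adjusted p = 0.0062 in edgeR's quasi-likelihood test). CTNS, the cystine exporter, had 370 and 945 counts, and 339 and 1025 (adjusted p = 0.0353 in the same edgeR test). Both were higher in each line by more than the DEG threshold. In MIA PaCa-2 cells LAMP3 reached 1 CPM only after CBC, with 0.0899 CPM in control and 13.1 in treated cells. CLCN7, the chloride exchanger, also rose, as did RRAGD, and these were named after their values were seen.

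RRAGC is a GTPase that brings mTORC1 and TFE factors to the lysosome, and FLCN activates it. RRAGC had 307 and 1027 counts in MIA PaCa-2, and 579 and 1882 counts in PANC-1 cells, and FLCN had 814 and 2396, and 701 and 1713. Their adjusted p was 0.0188 and 0.0309 in edgeR's quasi-likelihood test, and 23.1% and 11.9% of their exon bases overlap another gene on the same strand. DNASE2, the acid nuclease, and IGF2R, the receptor that sorts hydrolases by mannose 6-phosphate, rose as well (adjusted p = 0.0377 and 0.0369 in the same edgeR test). The bias-adjusted edgeR fit left 6 of the 8 genes called. It gave IGF2R an adjusted p of 0.0515, in a range of 0.000186 to 0.0515 over the other fits with the block, and RRAGD 0.0589, in a range of 0.00246 to 0.0589.

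The remaining genes of these lists that the naming rule picked did not pass. The cathepsin inhibitor CSTB had log2 fold changes of 0.68 and 0.61, CST3 of 0.07 and 0.23, and IDUA, an enzyme of glycosaminoglycan breakdown, of 1.30 and 0.66. The pump subunit ATP6V0A2 had 1.20 and 0.67, and ATP6V0E2 had -0.99 and -0.50. SORT1, a second sorting receptor, had -0.71 and -0.43. The lists thus held genes of both signs, as the members did.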

How the data were processed

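Poly(A)-selected RNA from both lines, after 24 h with CBC or PBS, was sequenced in 1 directional library per condition. The authors trimmed reads with cutadapt (version 2.7 per the submitters' processing notes), used STAR for alignment to GRCh38, and obtained counts for Ensembl release 89 genes from HTSeq. The aligner version and the strand setting of the counting are not given in the sources used here. The deposited counts are raw, beside which the authors gave each library's normalized signal, CPM scaled by edgeR's TMM factors. The deposited signal differed from CPM recomputed from the counts by at most 6.84e-09 in relative terms.

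Symbols were matched to 57392 of 58233 identifiers, with positions and lengths from GENCODE on GRCh38. Log2 fold changes were computed from the counts with edgeR 4.0.16 in R 4.3.3 (TMM, prior count 2) for genes with at least 1 CPM in either library of a line. Counting intervals were Clopper-Pearson at 95% (scipy 1.17.1) and cover counting error only. Across lines, edgeR's quasi-likelihood test was fitted to 16381 genes with the line as a block and Benjamini-Hochberg adjustment over all of them. The pairing comes from the lines. Over genes, the difference between the lines in the controls correlated at 0.923 with that in the CBC-treated libraries. This value describes the lines and not how alike their changes after CBC were. The common coefficient of variation that edgeR fitted was 23%. Without replicates within a line, it reflects how the change after CBC differed between the lines. In simulated data, 94% of 200 genes changed 4-fold were recovered among 16730 tested genes, and 3.09% of calls were false. Every simulated gene had the same variation, and each changed gene the same change in both lines, so these rates need not hold for the calls here. Smaller changes, and changes that differ between the lines, were not tested in this way. Apart from ATP6V0D2, the called members changed by 0.80 to 1.64 on the log2 scale across lines.

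Alternatives were library totals, DESeq2 1.42.0 and its size factors, TMM within each line, a prior count of 0.5, deposited CPM with a pseudocount of 1, no filter on low counts, at least 1 CPM in both libraries of a line, and no block. A bias-adjusted quasi-likelihood fit, canonical transcript lengths and the share without PSAP were added after seeing the data. All members were named, with the 2 genes of each further lysosomal list that had the largest mean absolute change at a mean of at least 10 CPM. Members and lists were chosen with earlier results of these data known. Replication consists of the 2 lines, which also differ in dose. With the line as a block, p-values set the change after CBC against its difference between the lines, a spread partly shared over all genes.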

Additional observations from a re-analysis of the deposited data

Results flagged for a closer look

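Of the members, 3 had changes whose counting intervals lay on opposite sides of 0 in the lines, and the difference between the lines was not tested. The intervals cover counting error only, so they do not establish that the lines differ. For MITF the log2 fold change in MIA PaCa-2 cells minus that in PANC-1 cells was 2.09, from counts of 21 and 66 against 96 and 72. For GLA it was 1.15, from 72.4 and 111 CPM against 119 and 82.3. For CTSZ it was -0.32, from 152 and 134 CPM against 76.3 and 83.5. Dose and line cannot be told apart in these differences.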

How the results depend on the processing

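Among the members called across lines, the count of 6 was the same with library totals, became 9 with DESeq2 (adding CTSD, NPC1 and TFE3) and 4 with the bias-adjusted quasi-likelihood fit of edgeR (losing HEXA and PSAP). With every gene that had a count it became 11, adding also ATP6V1E1 and CD63. With no replicate block it became 0, with 3 members and 354 genes at an unadjusted p under 0.05. Members above a log2 fold change of 1 numbered 5 to 8 in MIA PaCa-2 (7 as reported) and 2 to 4 in PANC-1 cells (3). At least 1 CPM in both libraries left out ATP6V0D2 in both lines and MITF in MIA PaCa-2, and library totals added TFE3 in MIA PaCa-2 and NPC1 in PANC-1 cells. Over all genes, 370 rose and 401 fell in the test as reported. The counts were 579 and 717 with DESeq2, 1056 and 1007 with every gene that had a count, and 0 and 0 with no replicate block. The cause of these shifts was not tested. Leaving out the mitochondrially encoded genes moved the share of counts on the members to 0.412% and 0.584% in MIA PaCa-2 and 0.543% and 0.785% in PANC-1 cells. Leaving out PSAP moved it to 0.352% and 0.493%, and to 0.355% and 0.477%. The median of the membrane genes in PANC-1 cells was 0.46 with library totals. Signs changed for SGSH in MIA PaCa-2 cells and ATP6V0E1 in PANC-1 cells with library totals, to 0.05 in both. No library could be left out, since each condition of a line had 1. The depth limits genes such as MITF, TFEB and ATP6V0D2, whose counts were few.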
